A study of Homo sapiens with 12 samples.

Results

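The genes described here encode the proteins of the large subunit of the cytosolic ribosome. They were chosen as a fixed list of Ensembl gene IDs covering the RPLP0 to RPLP2 and RPL3 to RPL41 families, and 44 of the 44 listed IDs were found among the 18569 gene IDs of the deposited values. They held 6514 of the 842183 positions, between 65 and 368 positions per gene with a median of 136. The deposited values pair no ID with a symbol, and the reference table used here, with 59792 genes, holds no Ensembl ID, so single genes are given by their ID and no role is assigned to any of them. For the same reason the level of METTL1 itself, the prostate marker genes, the small subunit genes and the ribosome assembly factors could not be looked up, and neither the knockdown nor the labelled cell type was checked in these libraries.

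Large subunit proteins assemble with ribosomal RNA in the nucleolus, and the finished subunit carries the centre that joins amino acids into protein. A stalk of acidic P proteins on its surface recruits and activates the translation factors. The mRNAs of these proteins are short, among the most abundant in growing cells, and begin with a pyrimidine tract through which growth signals set their translation. METTL1 is the methyltransferase that places 7-methylguanosine (m7G) on tRNAs and, as later work described, inside mRNAs and some miRNA precursors. AlkAniline-Seq reads m7G by chemistry: alkaline treatment opens the methylated base, aniline cleaves the RNA chain there, and an adapter is joined to the new end, so that reads begin at single positions.

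The study asked how internal m7G of mRNA changes when METTL1 is silenced. LNCaP-AI cells, a castration-resistant prostate cancer line grown out of LNCaP, either carried shMETTL1, a short hairpin RNA that stably knocks METTL1 down, or shscramble as the control. All cells in both groups were kept under androgen deprivation, and each group had 3 replicates each giving an AlkAniline-Seq library and an input library, which makes 12 libraries. Only 1 hairpin was used in these libraries, the labels do not say whether a group is 1 clone, and they name total RNA as the starting material. The study states in general that data came from biological replicates, but the labels do not tie the libraries to separate cultures, so p-values measure the spread between these samples only.

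The hairpin is shown because it is what separates the groups. The study's entry for it is written as 2 stretches of 23 bases each, and the capitals mark the 21 bases of each that are the reverse complement of the other. METTL1 lies on chromosome 12.
shMETTL1 first stretch: GGAATGTAGTCCATCTAAACTcg
shMETTL1 second stretch: aaAGTTTAGATGGACTACATTCC

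The AlkAniline-Seq libraries held 2474464 to 2764417 reads in shMETTL1 cells and 1421551 to 2624431 in shscramble cells. The input libraries held 2783709 to 3258499 reads in shMETTL1 cells and 3045523 to 3152800 in shscramble cells. The libraries were not alike in which positions they covered. Of the large subunit positions with at least 50 AlkAniline-Seq reads in shscramble replicate 2 or 3, shscramble replicate 1 had a read at 100%. The other 28 ordered pairs of libraries shared 71.7% to 92.9%. Over all genes the values of shscramble replicate 1 were 99.9% and 100%, against 31.1% to 63.4% in the other 28 pairs. The tests below count the 3 shscramble libraries as separate samples. Whether replicate 1 is independent of the other 2 in AlkAniline-Seq was not tested. Among the inputs, shMETTL1 replicate 1 had a read at 311979 positions and shscramble replicate 2 at only 72098, against 153839 to 165105 in the other libraries of shMETTL1 and 154432 to 158448 in those of shscramble. The biological coefficient of variation that edgeR fitted over all genes was 0.899 in AlkAniline-Seq and 0.806 in the input.

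Large subunit genes took a smaller share of the reads in shMETTL1 cells, in both kinds of library. In AlkAniline-Seq they held 4.0%, 4.35% and 4.21% of all reads in shMETTL1 replicates 1 to 3, against 4.88%, 4.94% and 4.67% in shscramble replicates 1 to 3. The groups did not overlap, and the means were 4.19 ± 0.17% and 4.83 ± 0.15% (SD, n = 3 each), a difference of -0.641 percentage points (exact two-sided permutation test, p = 0.1, the smallest that 3 against 3 allows). In the input the genes held 4.73%, 5.21% and 4.74% in shMETTL1 cells, against 6.07%, 6.08% and 6.15% in shscramble cells. The groups again did not overlap, with means of 4.89 ± 0.27% and 6.10 ± 0.04% (SD, n = 3 each) and a difference of -1.21 percentage points (exact permutation test, p = 0.1). A lower share of reads can come from less RNA of these genes in each cell or from more RNA of other genes, which these libraries cannot tell apart.

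The smaller share did not rest on a single gene or a single position in each gene. Without ENSG00000198918, the gene with the most reads, the difference between groups was -0.481 percentage points in AlkAniline-Seq and -0.931 in the input. Without the highest position of each gene it was -0.336 and -0.534, and the groups stayed apart in each of these cases. The AlkAniline-Seq difference did not keep its sign without positions read in 1 library only. These carried 30.6%, 26.1% and 26.8% of all AlkAniline-Seq reads in shMETTL1 cells, against 19.96%, 3.65% and 3.71% in shscramble cells, and within the large subunit genes at most 5.38% of the reads of any library. With such positions left out of every gene, a choice made after the values were seen, the large subunit share was 5.46%, 5.63% and 5.57% in shMETTL1 cells against 5.89%, 5.10% and 4.82% in shscramble cells, a difference of 0.279 in the other direction with overlapping groups (exact permutation test, p = 0.4). The input difference kept its sign there, at -0.900. Over all genes, shscramble replicate 1 had an AlkAniline-Seq read at 99.9% and 100% of the positions with at least 50 reads in shscramble replicates 2 and 3. Such positions could hardly be removed, so the removal fell unevenly on the libraries. The part of this in the change of sign was not tested.

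**Figure D1:**
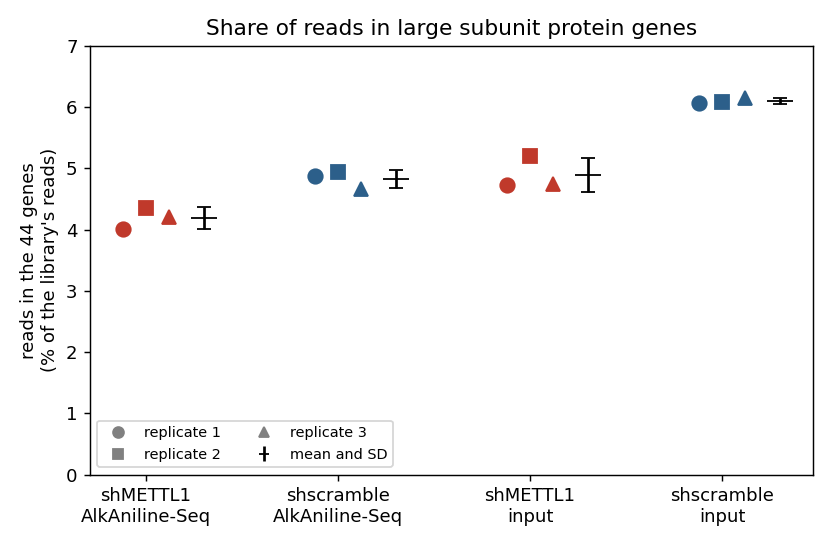
Reads in the 44 large subunit protein genes as a percent of all reads of each library (y axis), with 1 symbol for each replicate, for AlkAniline-Seq and input libraries of shMETTL1 and shscramble cells. Bars give the mean and SD of 3 replicates. The shMETTL1 libraries lie below the shscramble libraries in AlkAniline-Seq (4.0% to 4.35% against 4.67% to 4.94%) and in the input (4.73% to 5.21% against 6.07% to 6.15%).

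Set against its own input, the large subunit share was reduced in AlkAniline-Seq in every replicate, and less so in shMETTL1 cells. The AlkAniline-Seq share divided by the input share was 0.846, 0.835 and 0.888 in shMETTL1 replicates 1 to 3, against 0.805, 0.812 and 0.759 in shscramble replicates 1 to 3. The groups did not overlap and differed by 0.0646 (exact permutation test, p = 0.1). Without the highest position of each gene the ratio was 1.08, 1.14 and 1.07 in shMETTL1 cells against 1.06, 1.05 and 0.969 in shscramble cells. The position was picked separately for AlkAniline-Seq and input and removed from the 44 genes only. In 34 of the 44 genes it held the larger share of reads in the input, so a rise of the ratio follows from the removal itself.

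Gene by gene, AlkAniline-Seq reads of 31 of the 44 genes were lower in shMETTL1 cells than in shscramble cells, but no single gene passed the test. All 44 genes passed the filter on low counts, with 152 to 17890 reads per gene and library. Of all 11097 genes tested, 47.1% were below 0. The median log2 fold change (shMETTL1 over shscramble) was -0.16 for the large subunit genes and 0.07 for all genes, and 34 of the 44 lay below the median of all genes. The gap between the medians of -0.23 was -0.12 without shMETTL1 replicate 1 and -0.12 without shMETTL1 replicate 3, with 31 and 27 of the 44 below the median of all genes. With edgeR's quasi-likelihood test and Benjamini-Hochberg adjustment over all genes, 0 of the 44 had an adjusted p under 0.05 and 1 had an unadjusted p under 0.05, against 0.00901% and 6.97% of all genes, and DESeq2 called 0 of the 44 and 1.6% of all. The read counts per gene scaled to library size with TMM (CPM) did not overlap between the groups in 3 genes that were lower in shMETTL1 cells and 1 that was higher, against 7.38% and 7.1% of all genes, so the number of separated genes was near that of genes at large. Standard errors of single genes ran from 0.21 to 0.49.

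The highest and the lowest of the 44 in AlkAniline-Seq show how wide the replicates were. ENSG00000108298 had 2491, 2641 and 1579 CPM in shMETTL1 cells, against 1809, 1468 and 1070 CPM in shscramble cells. It was the highest by fold change, at 0.63 ± 0.26 (SE) on the log2 scale, with an edgeR adjusted p of 0.674, and shMETTL1 replicate 3 fell within the range of shscramble. ENSG00000131469 had 766, 719 and 447 CPM in shMETTL1 cells, against 485, 558 and 422 CPM in shscramble cells, with overlap and a log2 fold change of 0.40 ± 0.31 (edgeR adjusted p = 0.886). ENSG00000122026 was the lowest, with 98.7, 90.9 and 288 CPM in shMETTL1 cells against 200, 282 and 248 CPM in shscramble cells. Its shMETTL1 replicate 3 was above every shscramble library, the log2 fold change was -0.61 ± 0.49 (edgeR adjusted p = 0.892), and without that replicate it was -1.34. ENSG00000188846 had 117, 155 and 97.0 CPM in shMETTL1 cells against 223, 218 and 108 CPM in shscramble cells. The groups overlapped, with a log2 fold change of -0.57 ± 0.49 (edgeR adjusted p = 0.902).

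Set against all genes tested, the input gave the larger shift. In the input, 40 of the 44 genes were lower in shMETTL1 cells, against 51.5% of all 11740 genes tested, and the median log2 fold change was -0.51 against -0.04 over all genes. CPM did not overlap in 22 genes, all of them lower in shMETTL1 cells, against 5.84% of all genes that were lower and 7.64% that were higher without overlap. An unadjusted p under 0.05 was reached by 12 genes, all lower, against 6.26% of all genes, of which 4.62% were lower and 1.64% higher. That count of 12 was 4 without shMETTL1 replicate 3, 6 without shMETTL1 replicate 1, 4 with library size alone and 1 with DESeq2. After adjustment edgeR called 0 of the 44 and 0 of all genes, with a smallest adjusted p of 0.747 among the 44, and DESeq2 called 0 of the 44 and 0.298% of all. Without the filter on low counts edgeR called 6 of the 44, all lower, and 0.524% of all genes as lower. Scaling mattered for the position of 0. With library size alone the median of all genes moved from -0.04 to 0.22 and that of the 44 from -0.51 to -0.18. In the input 33 of the 44 remained below 0. In AlkAniline-Seq library size alone gave medians of -0.02 for all genes and -0.25 for the 44. At that setting the 44 thus lay further from 0 in AlkAniline-Seq than in the input.

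Genes with many reads leaned the same way in the input, though less. Among the 1131 other genes with at least as many reads as the least read of the 44, 71.9% were below 0. Their median log2 fold change was -0.29, and 15.03% were lower in shMETTL1 cells without overlap. An unadjusted p under 0.05 (edgeR) was reached by 13.2% of them in either direction, against 27.3% of the 44. In AlkAniline-Seq the same 1131 genes leaned the other way, with 39.1% below 0 and a median of 0.15. Against these 1131 genes the gap in medians was not larger in the input (-0.51 against -0.29) than in AlkAniline-Seq (-0.16 against 0.15). In direction, 29 of the 44 large subunit genes were below 0 in both kinds of library, 11 were above 0 in AlkAniline-Seq and below 0 in the input, 2 were the reverse, and 2 were above 0 in both.

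**Figure D2:**
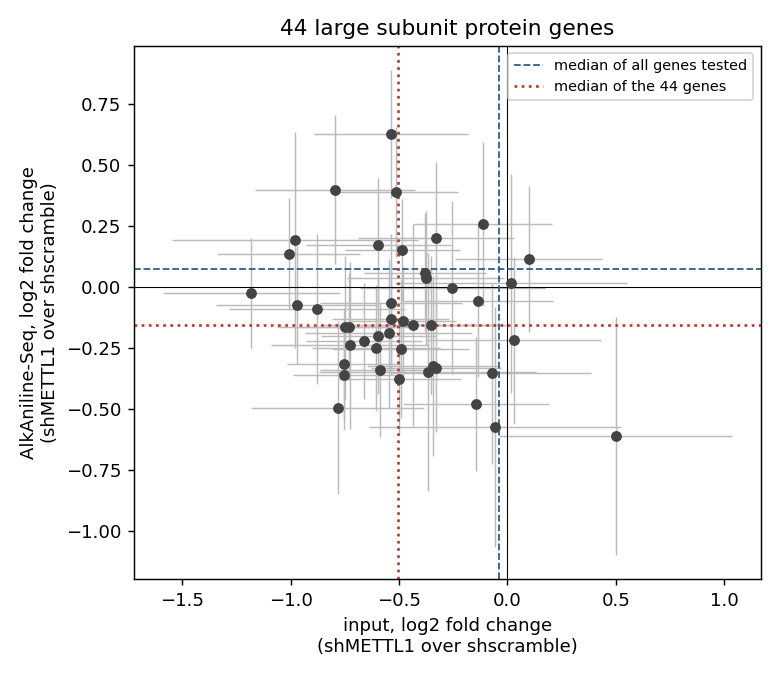
Each point is 1 of the 44 genes, with its log2 fold change of shMETTL1 over shscramble in the input (x axis) and in AlkAniline-Seq (y axis), and grey bars of 1 SE from edgeR. Dotted red lines mark the medians of the 44 genes (-0.51 and -0.16) and dashed blue lines the medians of all genes tested (-0.04 and 0.07), so most points lie to the left of and below the dashed lines.

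The 2 genes lowest in the input, singled out after their values were seen, differ in how far 1 library decides the value. ENSG00000182899 had 1224, 1512 and 2003 CPM in shMETTL1 cells, against 1740, 6870 and 2143 CPM in shscramble cells, a log2 fold change of -1.18 ± 0.41 (edgeR adjusted p = 0.764). Shscramble replicate 2 stood far above the other 5 libraries, and without it the log2 fold change was -0.30. ENSG00000089009 had 1760, 3066 and 2746 CPM in shMETTL1 cells against 3567, 8273 and 3405 CPM in shscramble cells, without overlap, a log2 fold change of -1.01 ± 0.33 (edgeR adjusted p = 0.751). Without shscramble replicate 2 it was -0.47. Over all 44 genes, 42 were below 0 without that replicate, with a median of -0.36.

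Whether AlkAniline-Seq reads moved apart from the input was asked with an interaction over the 12 libraries. The AlkAniline-Seq fold change exceeded the input fold change in 39 of the 44 genes and was below it in 5, against 43.8% below among all 12877 genes tested, and the median difference was 0.52 against 0.24 over all genes. With edgeR 0 of the 44 passed adjustment (0.00777% of all genes) and 8 had an unadjusted p under 0.05, all higher (8.35% of all genes in either direction), and DESeq2 called 0 of the 44 and 0.738% of all. The AlkAniline-Seq over input ratios did not overlap in 15 genes that were higher in shMETTL1 cells and in 0 that were lower, against 5.95% and 7.15% of all genes. The 1131 other genes with as many reads leaned the same way. Their median was 0.58, somewhat above that of the 44, while 17.2% of them were below 0 against 11.4% of the 44. Of the 1131 genes 18.3% were higher without overlap, against 34.1% of the 44. An unadjusted p under 0.05 (edgeR) was reached by 12.6% of the 1131 genes in either direction, against 18.2% of the 44. Whether the 44 genes differ from these was not tested. The values moved with the scaling: with library size alone the median was -0.03 for the 44 genes and -0.28 for all. At that setting 27 of the 44 genes were below 0 and 17 above, against 57.9% of all genes below 0. The 8 genes with an unadjusted p under 0.05 were 4 without shscramble replicate 2, 5 without shMETTL1 replicate 2, 2 with DESeq2 and 1 with library size alone.

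Between the 2 kinds of library, in both groups of cells together, 6 large subunit genes passed the test. AlkAniline-Seq reads were higher than input reads in 1 and lower in 5 (edgeR, adjusted p under 0.05), against 0.567% and 0.994% of all genes and 2.74% and 5.84% of the 1131 other genes with as many reads. DESeq2 called 1 higher and 3 lower, against 4.69% of all genes in either direction. An unadjusted p under 0.05 was reached by 10 genes that were higher and 9 that were lower, against 6.03% and 8.27% of all genes (14.3% in either direction, and 28.4% of the 1131 others). These 19 genes were 11 without shMETTL1 replicate 2 and 8 with DESeq2. The median over the 44 genes was 0.07 on the log2 scale and 0.02 over all genes, and 18 of the 44 were below 0, against 49.4% of all. All 6 AlkAniline-Seq over input ratios were above 1 in 9 genes and below 1 in 6.

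**Figure D3:**
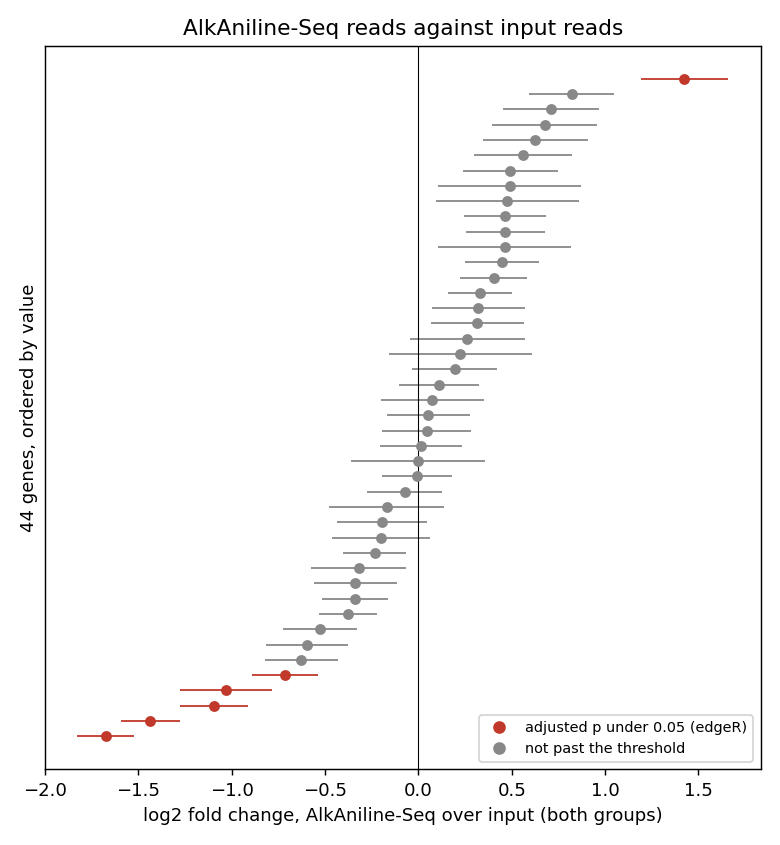
Log2 fold change of AlkAniline-Seq over input reads, averaged over shMETTL1 and shscramble cells (x axis), for the 44 genes in order of value, with bars of 1 SE from edgeR. Red points are the 6 genes with an adjusted p under 0.05, which lie between -1.67 and -0.71 or at 1.43.

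The 1 gene higher in AlkAniline-Seq was ENSG00000108298, also the highest of the 44 between the groups. Its input CPM were 541, 531 and 415 in shMETTL1 cells and 574, 1091 and 492 in shscramble cells, and with all 12 libraries scaled together its AlkAniline-Seq value was 4.45, 4.60 and 3.52 times that of the matching input in shMETTL1 cells and 2.78, 1.08 and 1.92 times in shscramble cells. Every ratio was above 1, and the log2 fold change was 1.43 ± 0.23 (edgeR adjusted p = 0.0012). It was called under all 9 alternatives, with 1.31 to 1.66. The ratios of shMETTL1 cells lay above those of shscramble cells without overlap, although the interaction did not pass for this gene (1.32 ± 0.46, edgeR adjusted p = 0.5). Its highest position held 15.3% to 27.9% of its AlkAniline-Seq reads and 6.90% to 30.1% of its input reads.

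The 5 genes lower in AlkAniline-Seq were named because they passed this test. The CPM given here were scaled within each kind of library, and the test scaled all 12 libraries together. ENSG00000145592 had 1665, 1444 and 1509 AlkAniline-Seq CPM against 4087, 3653 and 3093 input CPM in shMETTL1 cells, and 1719, 1615 and 1839 against 6270, 7046 and 4654 in shscramble cells. All AlkAniline-Seq libraries were below all inputs, and the log2 fold change was -1.67 ± 0.15 (edgeR adjusted p = 7.91e-07). ENSG00000071082 had 2062, 1733 and 2680 AlkAniline-Seq CPM against 4223, 5377 and 4035 input CPM in shMETTL1 cells, and 2731, 3135 and 2447 against 7903, 9119 and 6003 in shscramble cells, a log2 fold change of -1.44 ± 0.16 (edgeR adjusted p = 1.05e-05). These genes, and ENSG00000198918 at -1.09 ± 0.18 (edgeR adjusted p = 0.00155), were called under all 9 alternatives. ENSG00000174444 (-1.03 ± 0.25, edgeR adjusted p = 0.0334) was called under 4, and lost with DESeq2, without each shMETTL1 replicate, and without shscramble replicate 2, where the value was -0.60. ENSG00000125691 (-0.71 ± 0.18, edgeR adjusted p = 0.04) was called under 2, and lost with DESeq2 and without each replicate in turn.

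**Figure D4:**
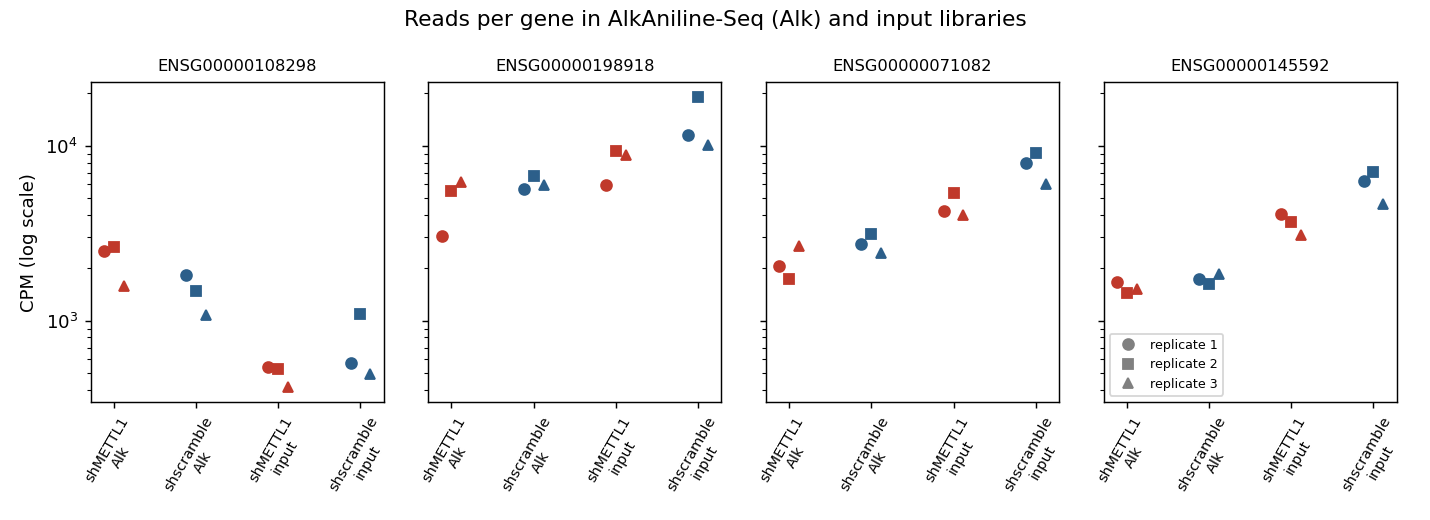
CPM after TMM scaling within each kind of library (log axis) of the 4 genes called under all 9 alternatives, with 1 symbol for each replicate, in AlkAniline-Seq (Alk) and input libraries of shMETTL1 (red) and shscramble (blue) cells. ENSG00000108298 lies higher in AlkAniline-Seq than in the matching input, and the other 3 genes lie lower.

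ENSG00000198918 had the most reads of the 44 genes. It made up 7.77% to 13.9% of the large subunit reads in AlkAniline-Seq and 14.8% to 20.6% in the input, and the 5 most read genes of each library made up 30.5% to 39.2% in AlkAniline-Seq and 44.9% to 54.7% in the input. Its AlkAniline-Seq CPM were 3049, 5487 and 6201 in shMETTL1 cells and 5651, 6710 and 5982 in shscramble cells, with overlap and a log2 fold change of -0.32 ± 0.23 (edgeR adjusted p = 0.87). In the input it had 5932, 9309 and 8789 CPM in shMETTL1 cells against 11450, 18984 and 10140 CPM in shscramble cells, without overlap (-0.76 ± 0.26, edgeR adjusted p = 0.76). A single position held most of these reads, 69.7% to 77.9% of the gene's AlkAniline-Seq reads and 85.2% to 88.2% of its input reads. At that position the reads that began there were 40.7% to 49.1% of the coverage in AlkAniline-Seq and 65.3% to 72.6% in the input, so that every AlkAniline-Seq library was below every input.

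Summed over the libraries of each kind, AlkAniline-Seq and input reads often had the same highest position in large subunit genes. A position that was the highest in every single library was less common. In 30 of the 44 genes (68.2%) the position with the most AlkAniline-Seq reads was also the one with the most input reads, against 43.4% of the 1131 other genes with as many reads. The highest position held a median of 13.3% of a gene's reads in AlkAniline-Seq (range 4.28% to 74.2%) and 18.2% in the input (4.66% to 86.9%). Whether or not the position was the same, the input value was higher in 34 of 44 genes. In the other genes the medians were 14.1% and 19.0%, and the input value was higher in 73.1% of genes against 77.3% here. The same position was the highest in each of the 6 AlkAniline-Seq libraries in 8 genes, in each of the 6 inputs in 11, and in all 12 libraries in 7. As a share of coverage, the highest AlkAniline-Seq position was below every input in 9 of the 44 genes (20.5%) and above every input in 0, against 4.42% and 0.531% of the 1131 other genes. These positions were picked by their AlkAniline-Seq reads, so the values are a description and were not tested.

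**Figure D5:**
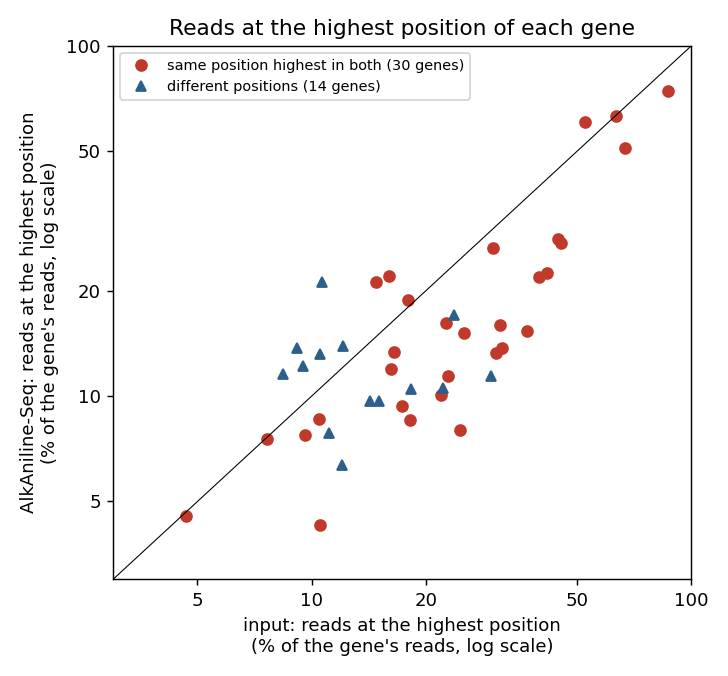
Percent of each gene's reads at its highest position in the input (x axis) and in AlkAniline-Seq (y axis), both on log axes, for the 44 genes, summed over 6 libraries each. Points under the diagonal (34 of 44) had more of their reads at the highest position in the input, and circles mark the 30 genes in which it was the same position.

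The other 2 genes called lower than the input under all 9 alternatives also had a highest position whose share of coverage was below every input. At the highest position of ENSG00000071082 the reads were 25.5%, 16.6% and 38.8% of coverage in AlkAniline-Seq of shMETTL1 cells and 34.5%, 35.0% and 28.5% in shscramble cells, against 50.2% to 53.8% in the 6 inputs. At that of ENSG00000145592 they were 17.8%, 12.1% and 22.5% in shMETTL1 cells and 23.5%, 32.0% and 30.8% in shscramble cells, against 37.1% to 44.3% in the inputs. In ENSG00000145592 the shMETTL1 libraries lay below the shscramble libraries, and in ENSG00000071082 the groups overlapped. ENSG00000122026, the lowest of the 44 in AlkAniline-Seq, also rested on 1 position, which held 38.3%, 60.3% and 68.0% of its AlkAniline-Seq reads in shMETTL1 cells and 54.8%, 68.2% and 70.8% in shscramble cells. Of its input reads the position held 75.6%, 76.2% and 65.8% in shMETTL1 cells but 73.2%, 4.43% and 5.24% in shscramble cells, so it was not stable in the input.

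Reads of large subunit genes fell at recurrent positions far more than reads at large. Positions read in all 6 AlkAniline-Seq libraries numbered 638, which is 9.79% of the positions in these genes, and carried 73.2% of their AlkAniline-Seq reads, against 29.9% over all genes. In the input 783 positions were read in all 6 libraries and carried 86.9% of the reads, against 47.5% over all genes. These genes have many reads, and the part of depth in this was not tested. Over the 44 genes together, reads as a percent of coverage were 3.50%, 3.39% and 4.0% in AlkAniline-Seq of shMETTL1 cells, against 4.08%, 4.15% and 3.59% in shscramble cells, with overlap (exact permutation test, p = 0.2). In the input they were 4.81%, 4.65% and 4.33% in shMETTL1 cells against 4.62%, 4.39% and 4.42% in shscramble cells (exact permutation test, p = 0.6). Summed over the 44 genes, AlkAniline-Seq reads thus made up less of the coverage than input reads in every replicate, and the groups could not be separated in either kind of library. Over all genes the AlkAniline-Seq values were 6.39%, 6.28% and 6.96% in shMETTL1 cells and 7.0%, 7.07% and 6.61% in shscramble cells. Those of the input were 7.76%, 7.07% and 6.86% in shMETTL1 cells and 6.55%, 6.43% and 6.60% in shscramble cells. There AlkAniline-Seq was below its input only in shMETTL1 replicates 1 and 2.

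At single positions the count of calls between shMETTL1 and shscramble cells depended on the test, and edgeR called none in the 6 libraries. Of 13973 positions tested over all genes, 1011 lay in large subunit genes. With edgeR 0 of these and 0 of all positions had an adjusted p under 0.05, and 44 of the 1011 (4.35%) had an unadjusted p under 0.05, against 8.19% of all positions. Of these 30 were lower in shMETTL1 cells and 14 higher, against 6.32% and 1.88% of all positions, and 463 of the 1011 were below 0, against 49.3% of all. Other tests gave other counts. DESeq2 called 25 of the 1011 positions, 10 higher (0.989%) and 15 lower (1.48%) in shMETTL1 cells, against 5.1% of all positions in either direction. Limma on the fold over input called 39 of the 2087 large subunit positions it could test, with 3 higher (0.144%) and 36 lower (1.72%), against 0.628% and 4.23% of all positions, and the study's thresholds on that fold (1.5-fold and an unadjusted p under 0.05) were passed by 100, with 13 higher in 11 genes and 87 lower in 39 genes. The last were 0.289% and 1.93% of the 4502 large subunit positions they could be applied to, against 0.204% and 1.05% of positions over all genes. Without shscramble replicate 3 edgeR called 76 of 1394 large subunit positions, 4 higher (0.287%) and 72 lower (5.16%), against 0.735% and 18.3% of all positions, so that these genes had a smaller share of calls than positions at large.

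Counting of reads may not separate these genes from their copies. The reference table lists 46 protein-coding symbols and 1273 pseudogene symbols of these families, and how reads with several places in the genome were counted is not given in the sources used here. Values of single genes, and of single positions within them, are uncertain to that extent.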

How the data were processed

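The authors deposited, for each position, the counts of reads at the position and of reads covering it, a fraction (count over coverage) and the ratio of that fraction to the fraction in the input. The fraction was checked at all positions, and the ratio only at positions where the input fraction was above 0. How the ratio was formed at the other positions was not checked. In the submitters' processing notes the tools are bedtools 2.24, Bowtie2 2.2.4 and cutadapt 1.9.1, with the hg19 build. Their parameters, the annotation and the treatment of reads with several hits were not given in the sources used here. Positions carry no coordinate.

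Counts were summed per gene ID and tested over all gene IDs with edgeR 4.0.16 in R 4.3.3 (TMM, quasi-likelihood test, filterByExpr at min.count 10 and min.total.count 15, Benjamini-Hochberg adjustment, threshold 0.05). AlkAniline-Seq over input was fitted over 12 libraries with group and assay. Single values used an exact two-sided permutation test. DESeq2 1.42.0, limma 3.58.1 on log2(ratio + 1), no filter, library size alone and leaving out each replicate were alternatives. The scripts were tested on simulated data. Python 3.11.15 with pandas 2.3.3 and scipy 1.17.1 handled the tables.

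The member genes and the lists were chosen with earlier results of these data known. The IDs named by rule were the 2 highest and the 2 lowest in AlkAniline-Seq fold change. The other IDs were named after their values were seen. The non-overlap counts, the study's thresholds (1.5-fold), the share over input share and the removal of positions read in 1 library were added after seeing the data. The lists of small subunit genes, assembly factors and cell type markers are defined by symbol and were not run.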

Additional observations from a re-analysis of the deposited data

How the results depend on the processing

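The lower share of large subunit reads in shMETTL1 cells kept its sign in the input under all 9 alternatives (-1.36 to -0.534 percentage points). In AlkAniline-Seq it kept its sign under 8 of 9. It reversed to 0.279 without positions read in 1 library only, a removal that fell unevenly on the libraries. Leaving out a replicate raises the smallest possible exact permutation p to 0.2. The count of the 44 genes called stayed at 0 in AlkAniline-Seq and for the change over input under every alternative run. In the input it was 6 without a filter on low counts and 0 otherwise. For AlkAniline-Seq against input it ran from 4 to 8, and its median less that of all genes (0.05) was -0.053 without shscramble replicate 3, within a leave-one-out range of -0.053 to 0.136. Called positions numbered 25 with DESeq2, 39 with limma on the fold over input, 100 with the study's thresholds, and 0 to 76 when a replicate was left out. The cause of these differences was not tested. Replicates that share a number did not deviate together (correlations of -0.025 to 0.051 between groups, none over 0.1). Nor did the AlkAniline-Seq and input libraries of the same replicate (correlations of -0.003 to 0.030). The ratios to the matching input pair these libraries by their labels. A fit with the replicate block called 0 of the 44 genes between groups in AlkAniline-Seq, in the input and for the change over input, 6 for AlkAniline-Seq against input, and 0 positions. The block moved medians, however: that of the 44 genes less that of all genes was -0.05 in AlkAniline-Seq (25 of 44 below, against 34 without the block), -0.70 in the input and 0.73 for the change over input, and the median of all genes turned to -0.11, 0.21 and -0.23. Without the block the 3 gaps were -0.23, -0.47 and 0.28, and leaving out a replicate gave -0.27 to -0.12, -0.67 to -0.37 and 0.17 to 0.42. The coefficient of variation between replicates was 1.42 at single positions.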
